A study of Mus musculus with 12 samples.

Results

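The 92 potassium channel genes described here are all genes whose symbol starts with Kcn and that a probe set of the array names alone. They make up 92 of the 17656 genes measured. They were found by symbol, with 95 such probe sets in the deposited table, and the brightest probe set over all arrays stood for a gene with more than 1. All 92 genes had at least 1 value above the noise level, so the filter on low values left none out. Of these genes 89 code for proteins, in 20 subfamilies beside the regulator Kcnrg, and 3 are noncoding RNAs named after the channel gene beside them. The study asked how gene expression in the medial prefrontal cortex (mPFC) differs after chronic social defeat. It compared 6 homecage (HC) mice with 6 mice exposed to chronic social defeat (CSD), all wild type adult C57BL/6 males, with a separate mouse for each array. CSD mice lived for a fortnight behind a perforated partition in the cage of an aggressive CD-1 male and met it in brief daily bouts, and the mPFC was dissected the day after the last bout with a white matter tract as its border. HC mice lived in groups, so the effects of defeat and of housing cannot be told apart. Mice of both kinds went through the same behavioral tests. By the paper, the test results also decided which defeated mice were included, so that choice cannot be told apart from defeat either.

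Potassium channels let potassium leave a cell and so set the resting potential, end each action potential and space the next. Voltage-gated channels open on depolarization, inward rectifiers and tandem-pore channels carry current near rest, and another class opens on internal calcium or sodium. Auxiliary subunits bind the pore proteins and alter their gating or their transport to the membrane. In the cortex, fast channels permit rapid firing of interneurons, A-type channels shape dendritic signals, and glial inward rectifiers remove potassium that active neurons release.

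The values are log2 intensities, in which a difference of 0.263 equals a 1.2-fold change. On each of the 12 arrays the median probe set lay between 7.50 and 7.69. HC replicate 2 stood apart. Its median deviation from the genes' means over all mice was 0.13 (log2) for the potassium channel genes and 0.11 for all measured genes. It was the highest of the 12 mice for 43 of the 92 channel genes and the lowest for 0. HC replicate 6 was the highest for 14 and the lowest for 18, and these 2 mice had the lowest median correlation with their own group, 0.992 and 0.991. Markers of cortical excitatory and inhibitory neurons were above noise on every array. All 12 measured markers of mature oligodendrocytes, the myelin-forming cells, were lower in CSD at an unadjusted p under 0.05, with a median difference of -0.58. Their mean level in a mouse ran from 9.77 to 10.36 in HC and from 9.21 to 9.74 in CSD. The array measures bulk tissue, in which fewer cells of a type and less RNA per cell cannot be told apart.

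**Figure D1:**
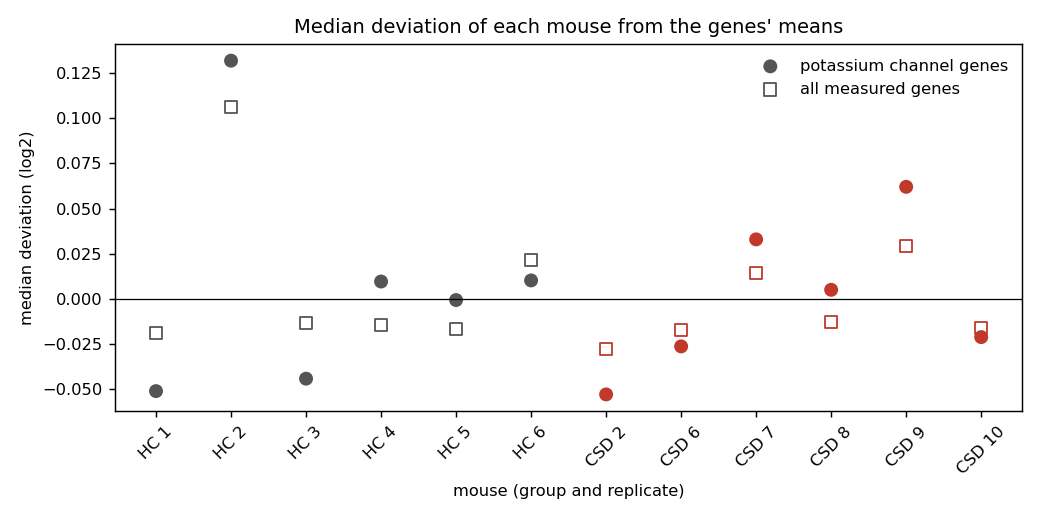
Median deviation (log2, vertical axis) of each mouse (horizontal axis, group and replicate) from the genes' means over all 12 mice, for the 92 potassium channel genes (filled circles) and all 17656 measured genes (open squares), with HC in grey and CSD in red. HC replicate 2 lies at 0.13 for the channel genes, above the other 11 mice, and CSD replicate 9 is next at 0.06.

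Levels of the potassium channel genes differed little between HC and CSD mice. Of the 92 genes, 48 had a lower and 44 a higher mean in CSD. The median difference (CSD minus HC) was -0.0037 (log2), beside -0.01 over all measured genes. Single differences ran from -0.22 for Kcnmb1 to 0.15 for Kcne4. With the p adjusted over all probe sets and a 1.2-fold change required, limma called 0 channel genes and the methods' t-test also called 0, beside 0% of all measured genes by limma. At an unadjusted p under 0.05, 4 channel genes (4.35%) were lower and 0 were higher. The share over all measured genes was 6.52% lower and 1.89% higher, so the count of lower channel genes lay near the background. That background depended on HC replicate 2: without this mouse 5.52% of all measured genes were lower and 5.74% higher, and of the 92 channel genes 3 were lower and 1 higher. With all mice, none of the 4 lower channel genes reached a 1.2-fold change together with an unadjusted p under 0.05, against 0.68% of all measured genes. After quantile normalization of the arrays 5 were lower (Kcna6, Kcnd1, Kcnh2, Kcnip3 and Kcnj10, but not Kcnmb1) and 2 higher (Kcna3 and Kcnj6). The shares of all measured genes were then 7.99% lower and 3.21% higher.

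Most of these differences were bounded closely. For 85 of the 92 channel genes (92.4%) the 95% confidence interval of the difference, from limma, lay within a 1.2-fold change in either direction. The same held for 89.0% of all measured genes. The 7 with a wider interval were the inward rectifiers Kcnj1, Kcnj6 and Kcnj13, the tandem-pore channels Kcnk4 and Kcnk16, and the auxiliary subunits Kcne4 and Kcnmb1; several of these are named for their interval, after it was seen. The median standard deviation between mice of a group was 0.105 for the channel genes and 0.0960 for all genes. It was lowest for Kcnu1 at 0.0317, a channel of sperm that lay at the noise level on 8 arrays, and highest for Kcnj13 at 0.405.

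**Figure D2:**
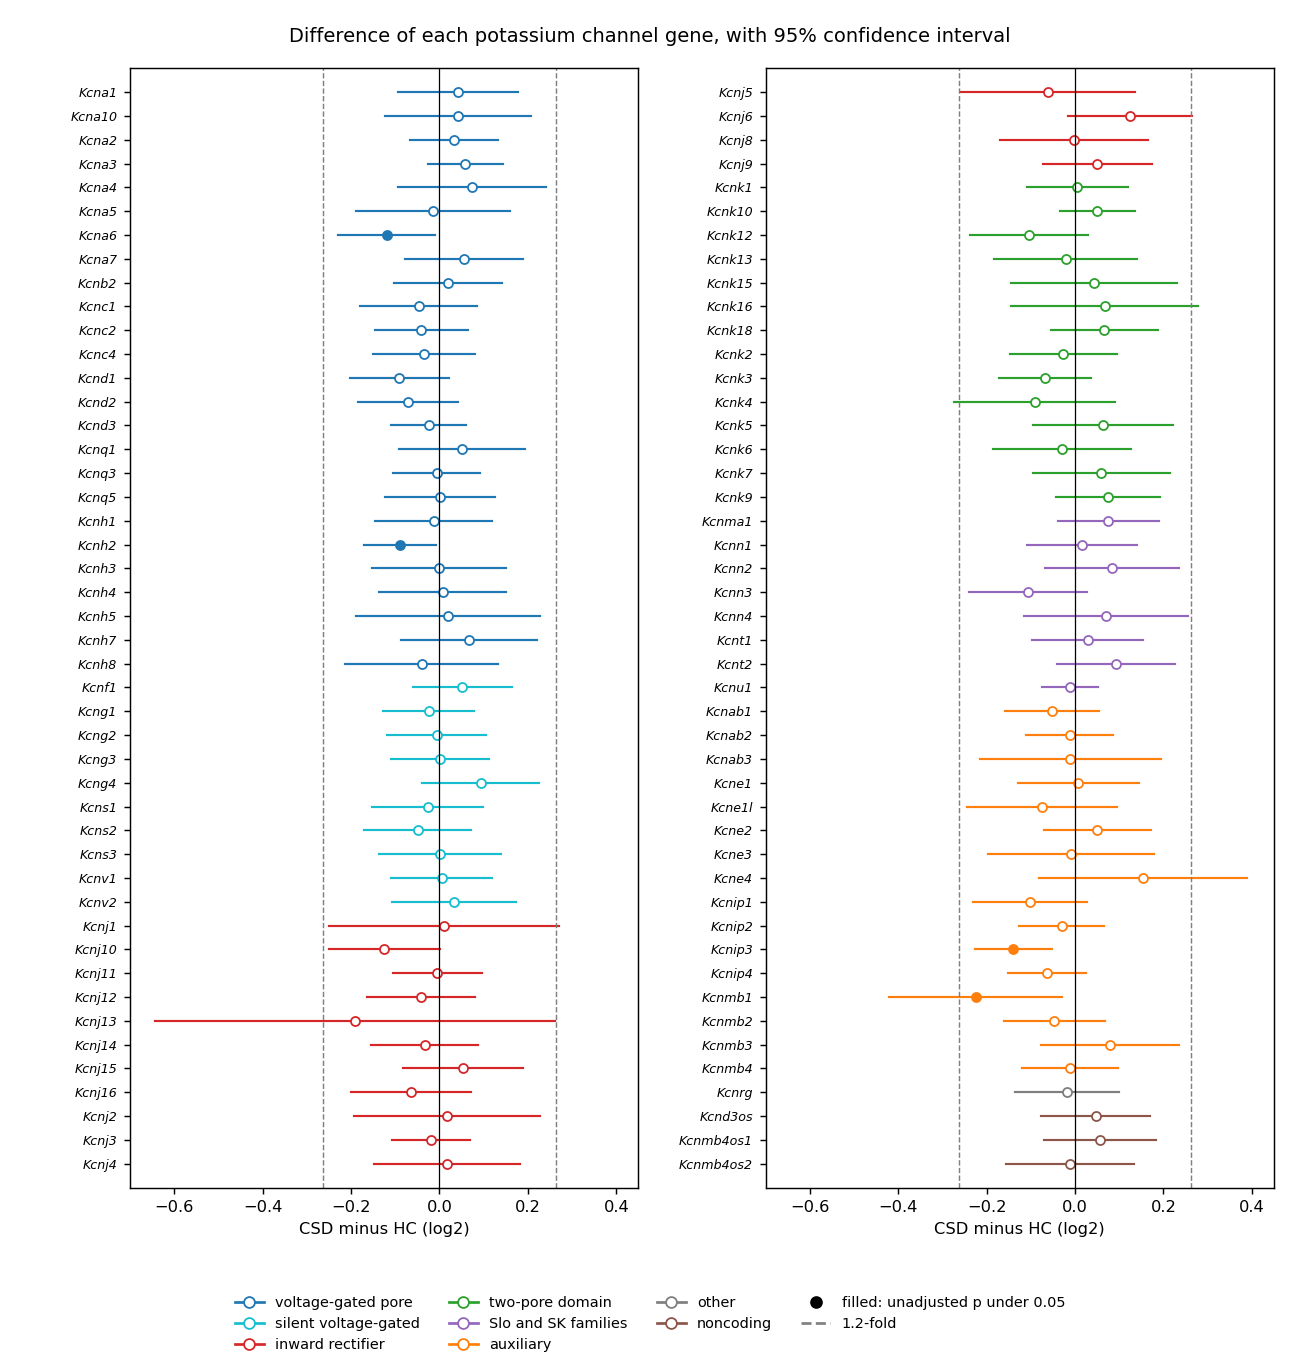
Difference CSD minus HC (log2, horizontal axis) of each of the 92 potassium channel genes (rows), as points with 95% confidence intervals from limma, coloured by role, with dashed lines at a 1.2-fold change. The 4 filled points (Kcna6, Kcnh2, Kcnip3 and Kcnmb1) have an unadjusted p under 0.05, all lower in CSD, and most intervals cross 0 and stay inside the dashed lines.

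The smallest p belonged to Kcnip3, which codes for a calcium-binding auxiliary subunit of A-type channels that is also known as a transcriptional repressor. Its log2 value in HC mice was 12.06 at the lowest, 12.07 at the median and 12.17 at the highest. In CSD mice these values were 11.84, 11.97 and 12.05. The groups did not overlap: every CSD mouse lay below every HC mouse, which was true of 1 channel gene (1.09%) and of 0.935% of all measured genes. No channel gene had all CSD mice above all HC mice, against 0.0793% of all measured genes. The mean was 12.10 ± 0.05 in HC and 11.96 ± 0.07 in CSD (SD, n = 6 each), a difference of -0.14 with a standard error of 0.04 by limma (adjusted p = 0.315, unadjusted p = 0.00442). A two-sided exact permutation test gave p = 0.00216, the smallest that 6 against 6 mice allow. Groups that do not overlap always give this p, so it adds nothing to the separation. It was not adjusted for the number of genes. The unadjusted p of Kcnip3 was under 0.05 in all 24 alternative settings, with differences from -0.158 to -0.116 and adjusted p from 0.177 to 0.526.

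The other 3 lower genes overlapped between the groups. Kcnmb1, an auxiliary subunit of the large-conductance calcium-activated (BK) channel best known from smooth muscle, ranged from 6.77 to 7.20 with a median of 7.07 in HC and from 6.56 to 6.95 with a median of 6.87 in CSD. Only 2 of 6 CSD mice lay below all HC mice. Its difference was -0.22 with a standard error of 0.09 (limma, unadjusted p = 0.0279, adjusted p = 0.529), and the interval reached from -0.42 to -0.03. The 8 measured markers of pericytes and smooth muscle split evenly, with 4 lower and 4 higher means and 0 at an unadjusted p under 0.05. Their mean level in a mouse ran from 7.98 to 8.28 in HC and from 7.91 to 8.30 in CSD.

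Kcnh2, the pore of the ERG delayed rectifier, ranged from 8.40 to 8.59 with a median of 8.47 in HC and from 8.30 to 8.42 with a median of 8.39 in CSD. Of the 6 CSD mice 4 lay below all HC mice. The difference was -0.09 with a standard error of 0.04 (limma, unadjusted p = 0.0341, adjusted p = 0.546; exact permutation p = 0.0173). Kcna6, a Shaker-type delayed rectifier of neurons, ranged from 9.53 to 9.77 with a median of 9.68 in HC and from 9.45 to 9.63 with a median of 9.54 in CSD. Its groups overlapped more, with 3 CSD mice below all HC mice. The difference was -0.12 with a standard error of 0.05 (limma, unadjusted p = 0.0354, adjusted p = 0.551; exact permutation p = 0.0455).

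The p of these 3 genes lay close to 0.05 and passed it when any of several mice was left out, whereas that of Kcnip3 stayed at 0.0117 or less. Kcna6 had a p from 0.0557 to 0.0788 when HC replicate 2, 4, 5 or 6 or CSD replicate 2, 9 or 10 was left out. Kcnh2 had one from 0.0521 to 0.0788 without HC replicate 1 or 4 or CSD replicate 2, 7 or 10. Kcnmb1 had one from 0.0562 to 0.0676 without HC replicate 3, 4 or 6 or CSD replicate 8 or 9. Their differences stayed between -0.14 and -0.10 for Kcna6, -0.10 and -0.07 for Kcnh2, and -0.27 and -0.18 for Kcnmb1. Hence the count of lower genes was 1, Kcnip3 alone, without HC replicate 4, and 2, Kcnip3 and Kcnmb1, without CSD replicate 2 or without CSD replicate 10. Without HC replicate 2, the mouse that stood apart, Kcnmb1 passed a 1.2-fold change (difference -0.27, unadjusted p = 0.0108). With HC replicates 2 and 6 both left out the difference of Kcnip3 was -0.16 (limma, unadjusted p = 0.00429, adjusted p = 0.319) and that of Kcna6 was -0.07 (limma, unadjusted p = 0.167). Over all 24 alternatives the unadjusted p was under 0.05 in 14 for Kcna6, 18 for Kcnh2 and 18 for Kcnmb1. Besides the settings with mice left out, Kcna6 lost it with array weights and with a replicate block. Kcnh2 lost it with robust estimation and a mean-variance trend, and Kcnmb1 after quantile normalization. The oligodendrocyte markers moved in the same direction as these 4 genes, as given above, and their part in the differences was not tested.

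**Figure D3:**
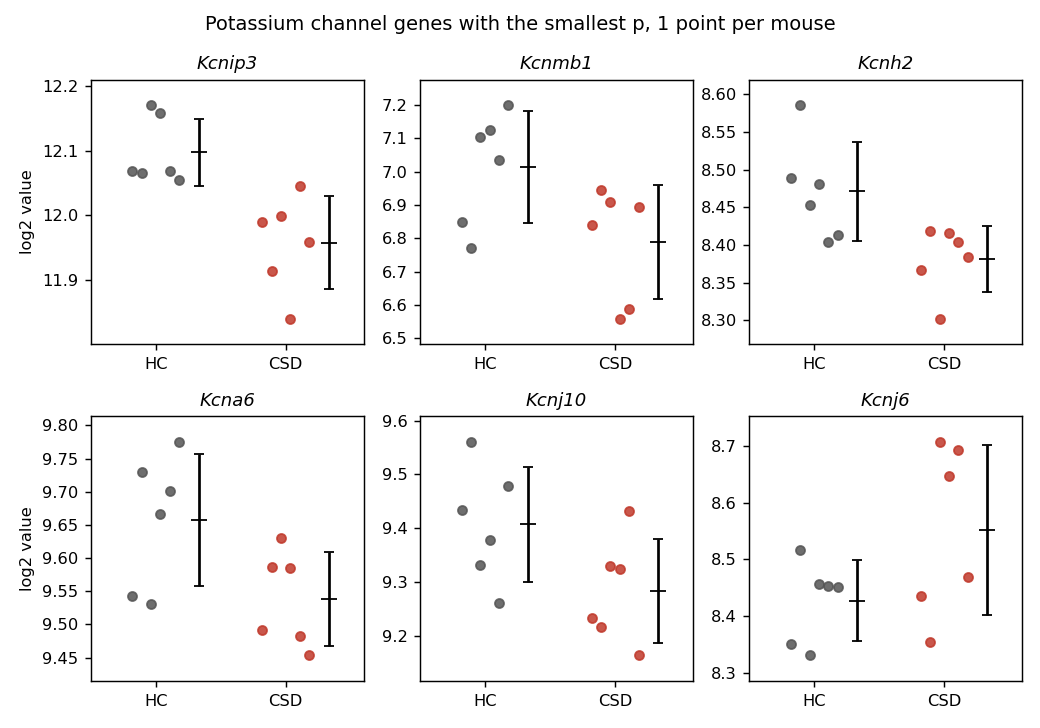
Log2 value (vertical axis, a separate scale for each gene) of the 6 potassium channel genes with the smallest p, with 1 point per mouse, HC in grey and CSD in red, and bars for mean ± SD (n = 6). For Kcnip3 all CSD points (up to 12.05) lie below all HC points (from 12.06), whereas the groups overlap for Kcnmb1, Kcnh2, Kcna6, Kcnj10 and Kcnj6.

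The upstream sequences of these 4 genes are shown because they are the members with the smallest p, so that their starts can be compared. Each is the 250 bases before an annotated start, read 5′ to 3′ on the strand of the gene, from RefSeq on GRCm38.p6. Capitals mark matches, on either strand, to any of 5 motifs that were searched for: GGGCGG (the GC box), CACGTG (an E-box), TGACGTCA (a cyclic AMP response element), ACAAAG (a SOX core) and TATAAA (the TATA box). None of the motifs overlaps another in these windows. Kcnip3 has 3 annotated starts, and its windows lie on the minus strand at chr2:127482500-127482749 (start A), chr2:127521393-127521642 (start B) and chr2:127522095-127522344 (start C). Those of Kcna6 at chr6:126740675-126740924 and Kcnh2 at chr5:24329592-24329841 are also on the minus strand, and that of Kcnmb1 at chr11:33962763-33963012 is on the plus strand.
Kcnip3 start A: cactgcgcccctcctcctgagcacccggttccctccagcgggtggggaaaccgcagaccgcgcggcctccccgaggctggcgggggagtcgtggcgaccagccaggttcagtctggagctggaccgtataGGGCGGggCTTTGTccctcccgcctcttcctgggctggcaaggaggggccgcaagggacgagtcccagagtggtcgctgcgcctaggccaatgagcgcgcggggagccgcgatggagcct
Kcnip3 start B: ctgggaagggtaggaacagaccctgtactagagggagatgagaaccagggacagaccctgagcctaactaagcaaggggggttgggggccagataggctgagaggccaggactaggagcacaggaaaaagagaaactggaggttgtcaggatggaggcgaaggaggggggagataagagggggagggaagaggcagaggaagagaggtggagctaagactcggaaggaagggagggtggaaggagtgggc
Kcnip3 start C: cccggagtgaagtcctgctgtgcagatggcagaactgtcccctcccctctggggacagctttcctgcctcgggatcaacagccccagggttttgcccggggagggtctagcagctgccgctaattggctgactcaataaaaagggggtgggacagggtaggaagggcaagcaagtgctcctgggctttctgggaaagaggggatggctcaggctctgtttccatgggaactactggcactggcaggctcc
Kcna6: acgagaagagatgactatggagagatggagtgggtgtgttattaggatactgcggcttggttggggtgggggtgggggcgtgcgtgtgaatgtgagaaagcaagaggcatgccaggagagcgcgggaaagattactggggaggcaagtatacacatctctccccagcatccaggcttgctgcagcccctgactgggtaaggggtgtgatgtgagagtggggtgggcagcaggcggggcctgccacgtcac
Kcnh2: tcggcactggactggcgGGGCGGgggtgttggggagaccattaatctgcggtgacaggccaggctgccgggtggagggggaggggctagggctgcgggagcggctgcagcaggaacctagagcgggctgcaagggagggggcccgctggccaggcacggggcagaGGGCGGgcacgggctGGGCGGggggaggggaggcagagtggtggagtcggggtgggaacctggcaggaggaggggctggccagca
Kcnmb1: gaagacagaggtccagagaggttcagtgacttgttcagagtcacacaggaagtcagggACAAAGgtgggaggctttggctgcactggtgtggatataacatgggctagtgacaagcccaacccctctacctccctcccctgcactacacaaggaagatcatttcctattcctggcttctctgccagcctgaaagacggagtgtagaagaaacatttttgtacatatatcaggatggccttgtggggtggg

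The windows differ in composition. The Kcnh2 window is 73.6% G and C and holds 3 GC boxes, and start A of Kcnip3 is 71.2% G and C and holds 1 GC box closely followed by 1 SOX core on the other strand. Starts B and C of Kcnip3 and the window of Kcna6, at 58%, 60% and 58.8% G and C, hold none of the 5 motifs. The Kcnmb1 window, at 50.8%, holds 1 SOX core. Promoter windows were listed for 70 of the 92 channel genes, 95 in all, with a median of 58.8% G and C, against 52.4% over all 32851 listed windows. A GC box occurred in 44.2% of the windows of channel genes and in 32.7% of all windows, and a SOX core in 11.6% and 16.5%. The TATA box occurred in 3.16% and 12.4%, the E-box in 6.32% and 6.02%, and the cyclic AMP response element in 0% and 1.55%. These matches describe letters and not binding.

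Voltage-gated pore genes, 25 in number, showed no common direction. Of these 13 had a lower and 12 a higher mean in CSD, with a median difference of -0.0013. At an unadjusted p under 0.05, 2 (Kcna6 and Kcnh2) were lower, against 6.52% of all measured genes. All 25 intervals lay within a 1.2-fold change. In the Kcna subfamily, Shaker-type channels of axons and terminals, 6 of 8 genes had a higher mean, with Kcna6 and Kcna5 lower. That is 25% with a lower mean, against 57.1% of all measured genes, and was not tested. Kcna1, which lies beside paranodes of myelinated axons, had a difference of 0.04 (interval -0.09 to 0.18). Kcna2, its partner there, had one of 0.03 (interval -0.07 to 0.13), and its other probe set gave 0.06. The values of Kcna1 in HC (10.03 to 10.23) lay inside its range in CSD (9.98 to 10.33).

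The 3 measured genes of the Kcnc subfamily, high-threshold channels that let interneurons fire rapidly, and the 3 of the Kcnd subfamily, the pores of the A-type current, each had a lower mean in CSD. None had an unadjusted p under 0.05. Kcnc1 differed by -0.05 (interval -0.18 to 0.09) and Kcnc2 by -0.04 (interval -0.15 to 0.06). Among the A-type pores, Kcnd2, the chief one of dendrites, ranged from 11.22 to 11.48 with a median of 11.27 in HC and from 11.10 to 11.33 with a median of 11.24 in CSD. The groups overlapped in part, with 1 CSD mouse below all HC mice and HC replicates 4 and 6 above all CSD mice. The difference of Kcnd2 was -0.07 (interval -0.19 to 0.04). Without HC replicate 6 its difference was -0.04, as it was without CSD replicate 8. Kcnd1 had the smallest p of the subfamily (difference -0.09, limma, unadjusted p = 0.101, adjusted p = 0.700), with 4 of 6 CSD mice below all HC mice; without CSD replicate 9, its highest CSD mouse, that p was 0.0339 (difference -0.12), and without HC replicate 2 the difference was -0.05 (limma, unadjusted p = 0.197). Kcnq3, a pore of the M current that restrains repetitive firing, differed by -0.01 (interval -0.11 to 0.09). Kcnq1, best known from heart and inner ear, differed by 0.05 (interval -0.09 to 0.19). Of the 7 Kcnh genes 4 had a lower and 3 a higher mean, and for Kcnh8 the 2 probe sets differed in sign at -0.04 and 0.02, both within their spread.

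Silent voltage-gated genes code for subunits that form no channel alone and modify Kcnb channels when they join them. All 10 had intervals within a 1.2-fold change, 4 with a lower and 6 with a higher mean, and 0 had an unadjusted p under 0.05. The smallest p of the Kcng subfamily was that of Kcng4, with a difference of 0.09 (limma, unadjusted p = 0.152, adjusted p = 0.759). Kcns2 differed by -0.05 and Kcnv2, a partner subunit in photoreceptors, by 0.03. Kcnf1 differed by 0.05 and was the only channel gene higher at an unadjusted p under 0.05 when HC replicate 2 was left out, against 5.74% of all measured genes. The pore gene Kcnb2, which these subunits can join, differed by 0.02 (interval -0.10 to 0.14).

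Inward rectifier genes numbered 15, of which 9 had a lower and 6 a higher mean, with a median difference of -0.0046 and 0 at an unadjusted p under 0.05. Kcnj10, the channel by which astrocytes and oligodendrocytes take up potassium, came closest. It ranged from 9.26 to 9.56 with a median of 9.41 in HC and from 9.16 to 9.43 with a median of 9.28 in CSD. The groups overlapped, with 3 of 6 CSD mice below all HC mice. The difference was -0.12 with a standard error of 0.06 (limma, unadjusted p = 0.0504, adjusted p = 0.594; exact permutation p = 0.0649). Its limma p was under 0.05 in 9 of 24 alternative settings. Without HC replicate 3, HC replicate 5 or CSD replicate 9 the unadjusted limma p was 0.0425, 0.0184 and 0.0178 in turn, with differences of -0.14, -0.15 and -0.15. Without HC replicates 2 and 6 the difference was -0.07 (limma, unadjusted p = 0.241), and with arrays centred on their medians it was -0.14 (limma, unadjusted p = 0.0141). Over all 24 alternatives its adjusted p ran from 0.388 to 0.828.

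Markers of the cells that carry Kcnj10 mostly had lower means, and so did markers of several other cell types. Beside the oligodendrocyte markers, 9 of 11 astrocyte markers had a lower mean, against 57.1% of all measured genes. Of these 11, 2 (Aqp4 and S100b, each with a difference of -0.18) were lower at an unadjusted p under 0.05, against 6.52% of all measured genes. Lower means were also found for 8 of 10 excitatory, 7 of 8 inhibitory, 6 of 7 microglial and 5 of 6 endothelial markers. For pericytes and smooth muscle it was 4 of 8, for oligodendrocyte precursors 4 of 6 and for striatal neurons 5 of 7. Of these markers 2 of precursors, 1 of microglia and 1 of striatal neurons were lower at an unadjusted p under 0.05. The mean level of the astrocyte markers in a mouse ran from 10.51 to 10.73 in HC and from 10.54 to 10.64 in CSD, and their part in the difference of Kcnj10 was not tested. Kcnj16, which joins Kcnj10 in glial channels, had an interval from -0.20 to 0.07 around a difference of -0.06. Kcnj8, the pore of metabolically gated channels of pericytes, differed by -0.0027 (interval -0.17 to 0.16). Kcnj6, a G protein-gated channel of neurons and named after its values were seen, had the largest higher mean of the subfamily. In HC it ranged from 8.33 to 8.52 with a median of 8.45, and in CSD from 8.36 to 8.71 with a median of 8.56. Here 3 CSD mice lay above all HC mice and 3 lay among them (difference 0.12, limma, unadjusted p = 0.0787, adjusted p = 0.659). Kcnj3 and Kcnj9, which assemble with Kcnj6, differed by -0.02 and 0.05. The epithelial channel Kcnj13 had the widest interval of all channel genes, from -0.64 to 0.26, with HC mice from 6.64 to 7.92 and CSD mice from 6.71 to 7.56.

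Tandem-pore domain genes carry the background current near rest. Of 14, 6 had a lower and 8 a higher mean, with a median difference of 0.02 and 0 at an unadjusted p under 0.05. Kcnk1 differed by 0.0049 (interval -0.11 to 0.12) and Kcnk2, which responds to stretch and lipids, by -0.03 (interval -0.15 to 0.09). Kcnk12 had the smallest p of the group (difference -0.10, limma, unadjusted p = 0.116, adjusted p = 0.721). It ranged from 8.95 to 9.34 with a median of 9.07 in HC and from 8.90 to 9.09 with a median of 8.98 in CSD. The highest HC value was that of HC replicate 2, far above the other HC mice, and 3 CSD mice lay below all HC mice. Without that mouse the difference was -0.05 (limma, unadjusted p = 0.231).

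The Slo and SK families, whose channels mostly open on internal calcium or sodium, had a higher mean in CSD for 6 of 8 genes. The median difference was 0.05, and 0 genes had an unadjusted p under 0.05. A lower mean was found for 25%, against 57.1% of all measured genes, and whether this share differs was not tested. Kcnu1, one of the lower genes, lay at the noise level on 8 arrays. Kcnma1, the pore of the BK channel, ranged from 11.26 to 11.49 with a median of 11.41 in HC and from 11.38 to 11.61 with a median of 11.44 in CSD. The groups overlapped in part, with 2 CSD mice above all HC mice and HC replicates 1, 2 and 3 below all CSD mice. The difference of Kcnma1 was 0.08 (interval -0.04 to 0.19), and 0.05 without HC replicate 3 or CSD replicate 9. The sodium-activated pair Kcnt1 and Kcnt2 differed by 0.03 and 0.09. For Kcnt2 the p was 0.157, and 0.0463 without HC replicate 6 (difference 0.13) but 0.361 without HC replicate 3 (difference 0.05). Kcnn3, a small-conductance channel opened by calcium, was the lower exception beside Kcnu1, with a difference of -0.11 (limma, unadjusted p = 0.110, adjusted p = 0.715). Without HC replicate 6 that p was 0.0192 (difference -0.15), and without CSD replicate 7 it was 0.0493 (difference -0.14).

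Auxiliary subunit genes had more lower than higher means, 12 against 4 (75% lower, against 57.1% of all measured genes), with a median difference of -0.02. Whether this share differs from that of other genes was not tested. Of the 16, 2 (Kcnip3 and Kcnmb1) were lower at an unadjusted p under 0.05, against 6.52% of all measured genes. All 4 Kcnip genes, calcium-binding partners of the Kcnd pores, had a lower mean, with differences of -0.10 for Kcnip1, -0.03 for Kcnip2 and -0.06 for Kcnip4 beside that of Kcnip3. The interval of Kcnip1 ran from -0.23 to 0.03 and that of Kcnip4 from -0.15 to 0.02, and 0 of these 3 genes had an unadjusted p under 0.05. The 3 Kcnab genes, oxidoreductase-like subunits of Kcna channels, also had lower means, the smallest p being that of Kcnab1 (difference -0.05, interval -0.16 to 0.05). In the BK family, Kcnmb2 and Kcnmb4, the latter its chief subunit in neurons, differed by -0.05 and -0.01, and Kcnmb3 by 0.08. Kcne4, which inhibits Kcnq1, had the largest higher mean of all channel genes. It ranged from 5.97 to 6.77 in HC and from 6.45 to 6.71 in CSD, so that every CSD mouse lay inside the HC range (difference 0.15, limma, unadjusted p = 0.183, adjusted p = 0.780). Without HC replicate 3 that p was 0.0297 (difference 0.23), without HC replicate 6 it was 0.439 (difference 0.07), and with the noise level set 1 log2 unit higher the difference was -0.0034.

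The 3 noncoding RNAs and Kcnrg, which interferes with the assembly of voltage-gated channels, had intervals within a 1.2-fold change. The smallest p among the RNAs was that of Kcnmb4os1 (difference 0.06, interval -0.07 to 0.18). Some channel genes are neighbours on their chromosome in the RefSeq order of coding genes, or neighbour a subunit of their channel, which gave 12 pairs. In 7 of them both genes differed in the same direction. Kcna1 and Kcna6 on chromosome 6 ran opposite ways, at 0.04 and -0.12, as did Kcnj9 and Kcnj10 on chromosome 1, at 0.05 and -0.12. Kcnip1 and Kcnmb1 on chromosome 11 were both lower, at -0.10 and -0.22.

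Genes that work with these channels formed a list of 56, of which 50 were measured. The list holds scaffold and clustering proteins, secreted and membrane partners, subunits of the sodium pump, cation-chloride cotransporters and their kinases, and cyclic nucleotide-gated relatives. It was chosen with earlier results of these data known. At an unadjusted p under 0.05, 7 (14%) were lower and 4 (8%) were higher, which is 22% in either direction against 8.41% of all measured genes and 4.35% of the channel genes. Whether the list differs from other genes was not tested. None passed the adjustment, none reached a 1.2-fold change, and the median difference was -0.01. With arrays centred on their medians the split was 7 lower and 2 higher.

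Among the lower partners, Lrrc55, an auxiliary subunit that shifts the gating of BK channels, had the smallest p. It ranged from 8.93 to 9.20 with a median of 9.13 in HC and from 8.78 to 9.07 with a median of 8.91 in CSD. The groups overlapped through 1 low HC mouse, with 4 CSD mice below all HC mice (difference -0.20, limma, unadjusted p = 0.00409, adjusted p = 0.313; exact permutation p = 0.00866). Lgi3, a secreted protein of the family that binds ADAM receptors, ranged from 10.83 to 11.08 with a median of 10.94 in HC and from 10.65 to 10.87 with a median of 10.75 in CSD. Of the 6 CSD mice 4 lay below all HC mice (difference -0.18, limma, unadjusted p = 0.00414, adjusted p = 0.313). Lgi2, of the same family, differed by -0.15 (limma, unadjusted p = 0.00751, adjusted p = 0.371). Lgi1, the member tied to epilepsy, differed by 0.01.

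Of 7 measured cation-chloride cotransporters and their kinases, Slc12a2 and Oxsr1 were lower at an unadjusted p under 0.05. The share of all measured genes lower at that limit was 6.52%. Slc12a2 is the sodium-potassium-chloride cotransporter, and Oxsr1 is a kinase that activates it. Slc12a2 ranged from 9.57 to 9.99 in HC and from 9.31 to 9.68 in CSD (difference -0.23, limma, unadjusted p = 0.0154, adjusted p = 0.455). Oxsr1 ranged from 9.79 to 9.99 in HC and from 9.63 to 9.81 in CSD, with 5 of 6 CSD mice below all HC mice (difference -0.13, limma, unadjusted p = 0.0150, adjusted p = 0.453). The other 5 had an unadjusted p of 0.263 or more, with differences of -0.01 for Slc12a5, the neuronal potassium-chloride cotransporter, 0.0021 for Slc12a7, -0.06 for Wnk1, 0.02 for Wnk3 and -0.02 for Stk39, the kinase most like Oxsr1. Cntn2, an adhesion protein of axons and myelinating glia that holds Kcna channels beside the paranode, differed by -0.17 (limma, unadjusted p = 0.0154, adjusted p = 0.455). Without HC replicates 2 and 6 its difference was -0.14 (limma, unadjusted p = 0.0826). Its partner Cntnap2 differed by -0.01. Atp1b2, a sodium pump subunit of glia, differed by -0.11 with an unadjusted p of 0.0490 by limma, which ran from 0.0540 to 0.113 when HC replicate 1, 2, 4 or 6 or CSD replicate 2, 6, 8 or 10 was left out and was 0.221 (difference -0.06) without HC replicates 2 and 6. The oligodendrocyte markers, lower in the same mice, were not tested for their part in these differences.

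The higher partners were Sptbn4, Dlg1, Dlg2 and Calm2. Sptbn4, the spectrin that holds Kcnq channels at the axon initial segment and nodes, ranged from 8.56 to 8.70 with a median of 8.64 in HC and from 8.66 to 8.90 with a median of 8.79 in CSD. Of the 6 CSD mice 4 lay above all HC mice (difference 0.15, limma, unadjusted p = 0.0149, adjusted p = 0.453). The membrane scaffolds Dlg1 and Dlg2 differed by 0.10 and 0.08 (limma, unadjusted p = 0.0177 and 0.0197, adjusted p = 0.461 and 0.467), each with 5 of 6 CSD mice above all HC mice. Among measured partners of like kinds, Dlg3 differed by 0.02, Dlg4 by 0.0014, Ank2 by 0.01, Ank3 by 0.03 and Calm3 by 0.02. With arrays centred on their medians the p of Dlg2 was 0.124. Calm2, a gene for calmodulin, differed by 0.08 with an unadjusted p of 0.0491 by limma, which ran from 0.0521 to 0.109 when HC replicate 3, 4, 5 or 6 or CSD replicate 2, 6, 7 or 10 was left out.

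**Figure D4:**
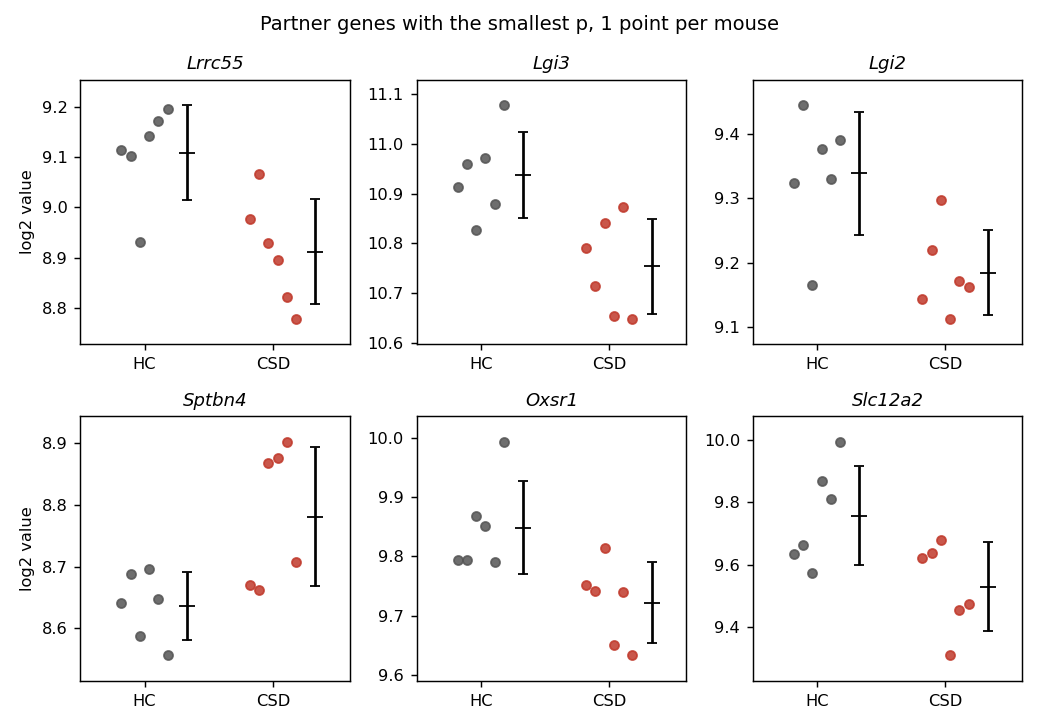
Log2 value (vertical axis, a separate scale for each gene) of the 6 partner genes with the smallest p, with 1 point per mouse, HC in grey and CSD in red, and bars for mean ± SD (n = 6). Lrrc55, Lgi3, Lgi2, Oxsr1 and Slc12a2 lie lower in CSD and Sptbn4 higher, and the groups overlap for each of the 6 genes.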

How the data were processed

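RNA from the mPFC of each of 6 HC and 6 CSD mice was hybridized to its own Affymetrix Mouse Gene ST array. The log2 intensities deposited by the authors come from RMA, run in the Expression Console of Affymetrix; no version was given. RMA removes background, scales arrays to a shared distribution and combines the probes of a set. In the deposited table the medians of the arrays still ran from 7.50 (HC replicate 6) to 7.69 (HC replicate 2). The table holds 35556 probe sets. The number of arrays limits the precision.

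Noise was set to the 20th percentile of all values, 5.75, since the methods give no value. The 29838 probe sets with at least 1 value above it stayed in the analysis, and lower values (4.67%) were set to it. In place of the methods' t-test, limma 3.58.1 (R 4.3.3) fitted each probe set without covariates, and its two-sided p-values were adjusted by Benjamini-Hochberg over the whole filtered table. Single genes were also tested by exact permutation over the 924 splits of the 12 mice. Genes were named from probe sets with 1 gene in the platform annotation, and all 92 were matched to RefSeq by Entrez identifier. Some Kcn genes are not reported here.

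Named are genes with an unadjusted p under 0.05 or groups that do not overlap, the smallest p of each subfamily, genes chosen for their role, and partners with an unadjusted p under 0.05. Other genes were added after their values were seen. Members and lists were chosen with earlier results of these data known. The alternatives were the methods' t-test, no floor, no filter, a higher noise level, only probe sets with 1 gene, centred arrays, quantile normalization, array weights, robust estimation with a mean-variance trend, the mean over probe sets, a replicate block, and leaving out each mouse or HC replicates 2 and 6. The scripts were tested on simulated data. Plots were made in Python 3.11.15 (matplotlib 3.10.9).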

Additional observations from a re-analysis of the deposited data

Results flagged for a closer look

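Among the 39 genes named by rule, each with 6 values per group, 3 of 78 groups held a mouse far from the rest by Dixon's test, and chance gives about 5% of groups. For Kcnd1, CSD replicate 9 lay at 8.1541, above the next CSD mouse at 8.0335, a gap of 0.664 of the range of the group. For Kcnk12, HC replicate 2 lay at 9.3444, above the next HC mouse at 9.0863, a gap of 0.649 of the range. For Lrrc55, HC replicate 3 lay at 8.9307, below the next HC mouse at 9.1016, a gap of 0.646 of the range.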

How the results depend on the processing

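Under every alternative run, 0 channel genes were called after adjustment by limma or, where it was the alternative, the methods' t-test. Over all measured genes 21 were called with only probe sets of 1 gene, 14 with robust estimation and a trend, 1 after quantile normalization and 0 otherwise. The count of channel genes lower at an unadjusted p under 0.05, 4 as reported, was 7 with arrays centred on their medians (the 4 plus Kcnd1, Kcnj10 and Kcnk12), where 8.53% of all measured genes were lower. The count of higher ones, 0 as reported, was 2 after quantile normalization (Kcna3 and Kcnj6) and 1 without HC replicates 2 and 6 (Kcnf1). The count of higher partners was 2 with centred arrays. Leaving out 1 mouse at a time gave 1 to 4 lower and 0 to 1 higher channel genes, 0 to 1 past a 1.2-fold change as well, a median difference from -0.0157 to 0.0188, 6 to 8 lower partners and 3 to 5 higher ones. The single higher gene was Kcnj6 without CSD replicate 6, Kcnf1 without HC replicate 2, Kcne4 without HC replicate 3 and Kcnt2 without HC replicate 6. The cause of these changes was not tested.

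Only the numbers 2 and 6 occur in both groups, and same-numbered mice did not deviate together (correlations -0.210 and -0.0355). With the number as a replicate block 3 channel genes were lower (Kcnh2, Kcnip3 and Kcnmb1) and 0 higher, with 6 lower and 3 higher partners. Over the 39 genes named by rule and these settings, 51 of 936 values lost an unadjusted p under 0.05, 19 gained it, and 25 changed sign, none of them with an unadjusted p under 0.05 before or after.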
